A study of Mus musculus with 48 samples.

Results

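Imprinted genes are expressed mainly from the copy inherited from one parent, and 10 of them were followed here through RNA-seq and Ribo-seq of mouse embryonic stem cells (mESCs). The members were taken by name, as the rows of the 2 expression tables whose identifiers map to *H19*, *Meg3*, *Rian*, *Mirg*, *Igf2*, *Dlk1*, *Peg3*, *Peg10*, *Mest* and *Grb10*. All 10 were found among the 55335 genes of the tables, 4 of them noncoding and 6 coding. The values are totals of both parental copies and do not tell the alleles apart.

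The study removed or altered NRDE2, a nuclear protein that binds the RNA helicase MTREX, and set this beside the loss of MTREX itself and of CCDC174, a second nuclear protein. RNA-seq was made from 14 groups and Ribo-seq from 2, with 2 libraries per group. All cells were mixed 129 and C57BL/6 mESCs with Cre-ERT2 in the *Rosa26* locus, grown without feeders in medium with serum, LIF and 2i. *Nrde2*-KO cells were a floxed line given 100 nM 4-hydroxytamoxifen (4OHT) for 4 d, and *Mtrex*-KO cells a floxed line given the same dose for 3 d. *Nrde2*Δ*200* cells made an NRDE2 without its amino-terminal part, and *Nrde2-D174R* cells an NRDE2 with a point mutation that affects its contact with MTREX. *Ccdc174-dTAG* cells, whose CCDC174 carries a degradation tag, received dTAG-13 at 500 nM for 24 h. The *Nrde2*-WT and *Mtrex*-WT controls were the floxed lines without 4OHT, and *Ccdc174*-WT was the tagged line without dTAG-13. In a further experiment *Nrde2*-KO, its own WT, *Ccdc174-dTAG* and its WT were each also given the translation inhibitor cycloheximide (CHX) at 0.1 mg/ml for 4 h. Ribo-seq compared *Nrde2*-KO with *Nrde2*-WT. *Nrde2*-KO, *Nrde2*Δ*200* and *Nrde2-D174R* shared 1 pair of WT libraries. Edited lines were grown from picked clones, so genotype and clone cannot be told apart in the 2 mutant lines, and drug and loss of protein cannot be told apart in the induced ones. Where nothing says that replicates came from separate cultures, the p-values measure the spread between libraries, which may be technical.

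Values are CPM, the reads of a gene scaled to the total of its library, divided by a scaling factor per library, called normalized CPM, given for the 2 libraries in replicate order. A member was called changed where limma's test gave a Benjamini-Hochberg adjusted p below 0.01 over all genes tested and a log2 fold change beyond 1 in size. Reads in genes ran from 28683644 to 36272309 per RNA-seq library and from 3475051 to 5035940 per Ribo-seq library. All 10 pluripotency markers were detected in every group. *Nrde2* itself stood at 19.3 and 20.4 in *Nrde2*-KO against 41.6 and 40.5 in WT, and *Mtrex* at 46.4 and 41.6 in *Mtrex*-KO against 119 and 112 in WT, so both targets were called lower. Under CHX the *Nrde2* count was not lower in the knockout, at 259 and 250.3 in the libraries labelled *Nrde2*-KO against 244 and 226 in WT. The same WT line without CHX stood at 53.6 and 52.2, so the count was higher with CHX in WT too. Under CHX this count therefore does not tell knockout from WT. *Ccdc174* RNA stood at 36.8 in *Ccdc174-dTAG* and 28.3 in WT on average, which checks nothing because dTAG-13 acts on the protein.

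Imprinting rests on DNA methylation laid down differently in egg and sperm at control regions, which is kept after fertilisation and silences genes in clusters. *H19* and *Igf2* form one such pair, with *H19*, a noncoding RNA, made from the maternal copy and *Igf2*, a fetal growth factor, from the paternal copy. *Meg3*, *Rian* and *Mirg* are noncoding RNAs made one after the other from the maternal copy of a second cluster, in which *Dlk1*, a membrane protein related to Notch ligands, is paternal. Their introns and exons carry many small nucleolar RNAs and microRNAs, and expression of this cluster is known to vary between stem cell lines. *Peg10* comes from a retrotransposon and is needed for the placenta, *Peg3* is a zinc finger protein, *Mest* a hydrolase-like protein, and all 3 are paternal. *Grb10* is an adaptor protein that restrains growth factor signalling and is mostly maternal outside the brain.

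Positions are those of GENCODE M21 on GRCm38. *Meg3*, *Rian* and *Mirg* lie on the plus strand of chromosome 12, at chr12:109541001-109571726, chr12:109603940-109661716 and chr12:109729764-109749460, and *Dlk1* lies upstream at chr12:109452823-109463336. *H19* (chr7:142575529-142578143) and *Igf2* (chr7:142650766-142666816) are minus-strand neighbours. *Peg3* is at chr7:6703892-6730431, *Peg10* at chr6:4747306-4760517, *Mest* at chr6:30723547-30748465 and *Grb10* at chr11:11930508-12038683. The start of *Meg3* is shown because the RNAs downstream of it moved together in the comparisons that follow. The window runs from 250 bases before to 50 bases after the RefSeq start on GRCm38.p6 (chr12:109540746-109541045, plus strand), with each CG in capitals.

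*Meg3* start: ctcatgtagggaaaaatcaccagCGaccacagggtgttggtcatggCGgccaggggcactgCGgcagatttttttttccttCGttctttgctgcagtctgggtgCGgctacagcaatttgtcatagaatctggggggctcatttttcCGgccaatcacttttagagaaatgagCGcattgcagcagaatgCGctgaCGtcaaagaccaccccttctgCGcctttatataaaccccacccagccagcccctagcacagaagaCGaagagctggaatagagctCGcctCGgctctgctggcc

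It holds 13 CG, the letters that DNA methylation acts on, and 37.9% of the 32851 RefSeq windows of the same length hold as many. The window of *Rian* holds 0 and that of *Mirg* 10, while the first of *Grb10* holds 45, a number that 1.9% of windows reach. The RefSeq window of *Mirg* (chr12:109734731-109735030) lies inside the gene as placed by GENCODE, not at its start there. Methylation was not measured in these data.

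RefSeq places 14 microRNA genes within *Mirg*, 3 within *Rian*, 2 within *Meg3* and 1 within *H19*. Those whose hairpin lies wholly in an exon of *Mirg* or of *H19* are shown, with 1 arm of each *Mirg* hairpin, since there the long RNA and the microRNA share bases. Capitals mark the seed, bases 2 to 8, which pairs with target RNAs.
mmu-miR-675-5p (*H19*): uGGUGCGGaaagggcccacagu
mmu-miR-675-3p (*H19*): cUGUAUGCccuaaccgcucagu
mmu-miR-134-5p (*Mirg*): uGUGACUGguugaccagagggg
mmu-miR-485-3p (*Mirg*): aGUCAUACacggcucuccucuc
mmu-miR-377-3p (*Mirg*): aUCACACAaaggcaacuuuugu
mmu-miR-410-3p (*Mirg*): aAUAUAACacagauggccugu
mmu-miR-453 (*Mirg*): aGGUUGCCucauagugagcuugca
mmu-miR-496a-5p (*Mirg*): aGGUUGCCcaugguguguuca
The last pair, from *Mirg* introns, is added because it was the one seed shared among the microRNAs of the members. The libraries measured long RNA and ribosome-protected fragments, so levels of mature microRNAs are not given.

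Per kb of annotated exon, *Peg10* was highest in *Nrde2*-WT of the first experiment at 21.1 normalized CPM, followed by *Mest* at 17.1 and *Rian* at 16.75. *Grb10* reached 9.52, *H19* 6.77, *Mirg* 4.37, *Peg3* 3.74 and *Meg3* 1.86 on the same scale. *Dlk1* at 0.0766 and *Igf2* at 0.0053 were close to absent, the latter resting on 2 reads in one library and 0 in the other. Exon length counts all annotated exons, which lowers the per-kb level of genes with many isoforms such as *Meg3*.

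*Mtrex*-KO had the largest log2 fold changes among the members. Its replicate 1 stood apart from the other RNA-seq libraries, with 72.1% of reads in genes against 82.7 to 92.1% and a scaling factor of 0.6808 against 0.828 to 1.145. Without it the log2 fold changes were 4.59 for *H19*, 3.42 for *Peg10* and −1.06 for *Grb10*, all called, and 0.87 for *Peg3*, which was not. Of 9 tested, 3 rose and 1 fell, where 26.7% of all 14889 genes were called in this comparison, 15.8% higher and 10.9% lower. *H19* stood at 14.03 and 32.3 normalized CPM in *Mtrex*-WT and at 297 and 520.4 in *Mtrex*-KO. The lowest *Mtrex*-KO library was far above every other RNA-seq library, of which the highest reached 50.05. This amounted to 4.19 ± 0.60 (SE, n = 2 per group), with an adjusted p of 9.2e-06.

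*Peg10* stood at 78.3 and 89.98 in *Mtrex*-WT and at 2439 and 899 in *Mtrex*-KO, so the knockout libraries differed widely but both were above all others. This amounted to 4.14 ± 0.28 (SE, n = 2 per group), with an adjusted p of 1.2e-09. *Peg3* rose from 40.0 and 38.6 to 91.4 and 72.0, or 1.04 as a log2 fold change, with adjusted p = 2.4e-07. It was not called without *Mtrex*-KO replicate 1, where the log2 fold change was 0.87, nor with CPM as deposited, where it was 0.64. *Grb10* fell from 144 and 139 to 66.0 and 67.8, or −1.08 as a log2 fold change, with adjusted p = 1.4e-07. *Mest* stood at 46.3 and 46.5 in WT and 90.2 and 87.1 in knockout, with a log2 fold change of 0.93 below the fold limit.

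*Igf2* was not tested, since its mean over the libraries of each fit was below the limit of 0.5 CPM. The *Mtrex*-KO libraries held 48 and 20 reads of it and the *Mtrex*-WT libraries 4 and 1, while no other RNA-seq library held more than 4. The ratio of CPM was 12.8, with a 95% Clopper-Pearson interval of 5.23 to 40.7 that covers counting error in these 4 libraries only. *Igf2* shares 3596 exon bases with *Gm49394* on the same strand, so its count is uncertain. *Gm49394* had 7 and 11 reads in *Mtrex*-KO and 0 in both *Mtrex*-WT libraries.

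In the noncoding cluster no member was called. *Meg3* stood at 4.10 and 1.34 in *Mtrex*-WT and 10.9 and 1.94 in *Mtrex*-KO, so that the groups overlapped. *Rian* (29.0 and 12.4 against 37.5 and 19.9) and *Mirg* (3.31 and 2.02 against 5.37 and 3.30) overlapped too, with log2 fold changes of 0.52 and 0.65 and adjusted p-values by limma of 0.108 and 0.0093. *Meg3* was called higher without *Mtrex*-KO replicate 2 (log2 fold change 2.09) and *Rian* without *Mtrex*-WT replicate 1 (1.13). Without *Mtrex*-KO replicate 1, the library that stood apart, the log2 fold changes were −0.26 for *Meg3*, 0.07 for *Rian* and 0.32 for *Mirg*. *B830012L14Rik*, a noncoding transcript between *Rian* and *Mirg*, was called higher, by 1.03 on the log2 scale (adjusted p = 0.00301 by limma). *Mtrex*-WT held the 3 members far below the other WT lines, 12.4 times lower for *Meg3*, 14.8 times for *Rian* and 11.9 times for *Mirg* than *Nrde2*-WT of the first experiment. This is a difference between lines and experiments and is given without a test.

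**Figure D1:**
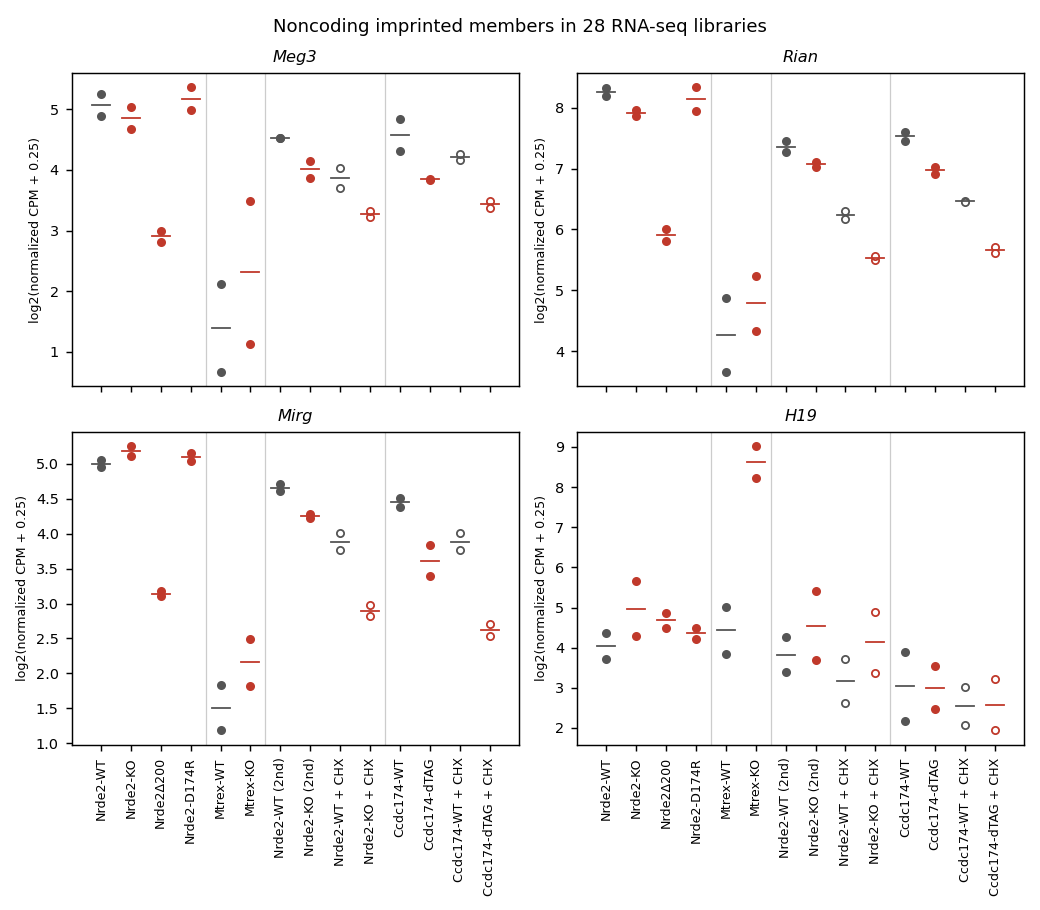
Level of the 4 noncoding members in each of the 28 RNA-seq libraries, as log2 of normalized CPM plus 0.25, with 1 point per library, a bar at the mean of each pair, grey for WT, red for mutant or depleted cells and open points for CHX. Among groups without CHX, *Meg3*, *Rian* and *Mirg* were lowest in *Nrde2*Δ*200* and in both *Mtrex* groups. With CHX, the *Rian* and *Mirg* means in *Nrde2*-KO (46.12 and 7.22) and *Ccdc174-dTAG* (50.47 and 5.911) were below those in *Nrde2*Δ*200* (59.88 and 8.585). *H19* was high in *Mtrex*-KO, at 297 and 520.4 normalized CPM.

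Markers of some other cell states moved in the same libraries. The summed level of 7 trophectoderm markers was 489 to 508 normalized CPM in *Mtrex*-KO and 85.9 to 121 in *Mtrex*-WT, and that of 8 markers of 2-cell-like cells was 105 to 294 against 4.82 to 15.3. The summed level of 4 neuroectoderm markers was 129 to 149 against 58.8 to 66.0, and that of 7 primitive endoderm markers 19.5 to 20.3 against 11.5 to 12.2. All markers of these 4 lists were above 0 in both groups. The 6 fibroblast markers summed to 4.48 to 4.89 in *Mtrex*-KO, with 0 of them at 0, and to 15.9 to 16.1 in *Mtrex*-WT, with 1 at 0. The 10 pluripotency markers summed to 5014 to 5974 in *Mtrex*-KO and 6525 to 6783 in *Mtrex*-WT. Sums of primed epiblast markers (125.6 to 131.1 against 124.1 to 126.7) overlapped. Those of mesoderm and endoderm markers (14.45 to 19.58 against 14.25 to 16.58) overlapped too. The part of these lists in the result was not tested. In bulk RNA a change in the share of cells that express a gene cannot be told apart from a change per cell.

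Of 51 other imprinted genes listed, 40 were tested and in *Mtrex*-KO 13 rose and 1 fell, where 15.8% of all genes rose and 10.9% fell. Their median log2 fold change was 0.54, against 0.00 for all genes and 0.91 for the 9 members. The largest changes were those of *Slc22a3*, an organic cation transporter, with 3.75, *Ascl2*, a transcription factor of the trophoblast, with 3.27, *Cdkn1c*, a cyclin-dependent kinase inhibitor, with 3.04, *Dio3*, a thyroid hormone deiodinase at the far end of the *Dlk1* cluster, with 2.72, and *Osbpl5*, a lipid transfer protein, with 2.52. The *Cdkn1c* mean, for example, was 17.97 in *Mtrex*-KO and 1.94 in its WT (adjusted p = 8.6e-08 by limma). Of 15 genes linked to the control of imprints, 1 was called higher and 2 lower, where 26.7% of all genes were called. *Uhrf1*, which brings the maintenance DNA methyltransferase to replicated DNA, fell by 2.01 on the log2 scale. *Ehmt2*, a histone methyltransferase, fell by 1.36 and *Dnmt3l*, a partner of the de novo DNA methyltransferases, rose by 1.61.

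*Peg10* was the 1 member called in each of the 3 RNA-seq comparisons of *Nrde2*-KO with WT, the last of them with CHX, where the *Nrde2* count was not lower in the libraries labelled *Nrde2*-KO. In the first experiment it stood at 142 and 139 normalized CPM in WT and at 445 and 319 in *Nrde2*-KO, which is 1.42 ± 0.28 as a log2 fold change (SE, n = 2 per group), adjusted p = 0.00113. It was 1 of 9 members tested, where 5.01% of all genes were called. The call was lost without WT replicate 1 (log2 fold change 1.43, adjusted p 0.0102), without WT replicate 2 (1.40, 0.0112) and without *Nrde2*-KO replicate 1 (1.18, 0.0256), each by limma over all genes.

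The second experiment started from a lower level, at 77.7 and 65.0 in WT and 221 and 198 in *Nrde2*-KO. The rise was 1.55 ± 0.28 on the log2 scale (SE, n = 2 per group), with an adjusted p of 5.1e-04, and it was the one call among 9 members where 4.84% of all genes were called. With CHX in both groups the values were 52.4 and 46.0 in WT and 173.9 and 126 in the libraries labelled *Nrde2*-KO. On the log2 scale the rise was 1.59 (adjusted p = 1.1e-05 by limma), and 4.57% of 15476 genes were called. The effect with CHX minus that without was 0.03, with a 95% interval from −0.41 to 0.48. No library of *Nrde2*-KO overlapped its WT in these comparisons.

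The longer form of PEG10 is made by a ribosomal frameshift at a slippery heptamer, as in retroviruses. The heptamer GGGAAAC occurs once in each of 2 of the 3 annotated *Peg10* transcripts, at the same place (chr6:4755317-4755343 with 10 bases on each side, plus strand, an exon), and is shown in capitals.
*Peg10*: attcgccgccGGGAAACtccccggccc
Ribosome footprints were counted per gene, so reading frames on either side of it are not separated here.

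*H19* stood at 20.5 and 12.8 in WT and 50.05 and 19.4 in *Nrde2*-KO, and at 19.02 and 10.2 against 42.2 and 12.6 in the second experiment. The mean was higher in knockout in both, but the groups overlapped and the adjusted p-values by limma were 0.26 and 0.392. *Grb10* was at 91.7 and 81.2 in WT and 66.5 and 58.6 in *Nrde2*-KO, or −0.47 as a log2 fold change, with adjusted p = 0.00368, which did not reach the fold limit. *Dlk1* was at 0.606 and 0.26 in WT and 1.501 and 0.576 in knockout, near the lower limit of the tests, with overlapping libraries.

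*Rian* stood at 319 and 291 in WT and 249 and 233 in *Nrde2*-KO, *Meg3* at 37.7 and 29.5 against 32.5 and 25.4, and *Mirg* at 30.7 and 33.1 against 37.9 and 34.3. *Rian* and *Mirg* did not overlap WT, *Rian* being lower and *Mirg* higher. In the second experiment all 3 were lower in *Nrde2*-KO without overlap, so the direction of *Mirg* differed between the experiments. There *Mirg* stood at 24.07 and 25.97 in WT and 19.21 and 18.5 in *Nrde2*-KO. *Meg3* was at 22.75 and 22.81 against 14.31 and 17.5, and *Rian* at 153.7 and 174.3 against 129.6 and 138.4. None of the 3 was called in either experiment without CHX. With CHX the 3 RNAs were lower in the libraries labelled *Nrde2*-KO, with log2 fold changes of −0.70 for *Rian*, −0.59 for *Meg3* and −0.99 for *Mirg* and adjusted p-values by limma of 1.4e-05, 0.00226 and 1.6e-04. All were under the fold limit, and 27.8% of genes had an adjusted p below 0.01 by limma at any fold. *Mirg* was called without WT with CHX replicate 1 (−1.11) and without *Nrde2*-KO with CHX replicate 1 (−1.07).

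The summed level of the 2-cell-like markers was 24.6 to 36.7 in *Nrde2*-KO and 2.52 to 3.49 in WT. In the second experiment it was 105 to 112 against 7.22 to 7.50, and with CHX 56.4 to 62.5 against 5.321 to 5.365. The 7 primitive endoderm markers summed to 21.9 to 24.4 against 13.7 in both WT libraries, and to 16.8 to 20.1 against 9.79 to 11.4 in the second experiment. All markers of both lists were above 0 in each group. Pluripotency markers summed to lower values, 4661 to 4999 against 6064 to 6344, and 5426 to 5657 against 6133 to 6320 in the second experiment. Neuroectoderm markers were lower too, at 51.8 to 54.7 against 69.2 to 73.6, and then 86.0 to 90.5 against 101 to 104. Trophectoderm, mesoderm and endoderm, primed epiblast and fibroblast sums did not stay apart from WT in both experiments. The part of these lists in the *Peg10* result was not tested. Among the other imprinted genes, *Zim1*, a zinc finger gene beside *Peg3*, rose in both experiments by 1.76 and 1.18 on the log2 scale, from means of 0.596 and 0.387 normalized CPM. *Peg13*, a noncoding RNA, rose by 1.19 in the first experiment. *Nap1l5* rose by 1.01 and *Nnat*, a neuronal proteolipid, fell by 1.06 in the second. Altogether 2 of 40, or 5%, were called in the first experiment, near the 5.01% of all genes, and 3 in the second, where 4.84% of all genes were called.

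*Nrde2*Δ*200* was the line in which the noncoding cluster changed most. Of 9 members tested 3 fell and 1 rose, where 2.65% of all genes were called, 1.07% lower and 1.59% higher. *Rian* stood at 64.1 and 55.7 normalized CPM against 319 and 291 in WT, which is −2.35 ± 0.28 as a log2 fold change (SE, n = 2 per group), adjusted p = 3.0e-05. *Mirg* stood at 8.81 and 8.36 against 30.7 and 33.1, which is −1.86 ± 0.20 as a log2 fold change, adjusted p = 1.2e-05 by limma. *Meg3* stood at 7.69 and 6.80 against 37.7 and 29.5, which is −2.17 ± 0.50 as a log2 fold change, adjusted p = 0.00697 by limma. No library of the mutant overlapped WT for these 3 RNAs.

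*Meg3* shared its estimate of the spread with the *Mtrex* libraries, in which it varied most. Leaving out either WT or either mutant library moved its log2 fold change between −1.99 and −2.34 and its adjusted p to between 0.0318 and 0.07, so the call was lost each time. The cluster holds 102 annotated genes from *Dlk1* to *Mirg*, of which 66 are microRNA genes, and 6 passed the filter on low values, all on the plus strand. Besides the 3 members, *B830012L14Rik* and *Gm37899*, transcripts between *Rian* and *Mirg*, were called lower, by 1.56 and 1.43 on the log2 scale. *Dlk1*, the sixth, was at 0.718 and 0.591 against 0.606 and 0.26 in WT and was not called.

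The values in the point mutant were near those of WT. *Rian* was at 323 and 246 in *Nrde2-D174R*, *Meg3* at 40.8 and 31.6 and *Mirg* at 35.3 and 32.6, with log2 fold changes of −0.12, 0.11 and 0.09 and 95% intervals that reached from −0.71 to 0.47, −0.95 to 1.16 and −0.34 to 0.52. The WT libraries are the same ones as for *Nrde2*-KO and *Nrde2*Δ*200*, so these comparisons are not independent. *Nrde2*Δ*200* is a clonal line, and whether the lower levels go with the truncation or with the clone was not tested.

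*Peg10* rose in *Nrde2*Δ*200* as well, to 320.4 and 381 from 142 and 139, or 1.31 as a log2 fold change, with adjusted p = 0.00453. The call was lost without any one of the 4 libraries, at log2 fold changes from 1.18 to 1.44. *Mest* stood at 126 and 108 against 60.9 and 73.7, or 0.80 as a log2 fold change, with adjusted p = 0.00565, under the fold limit. The summed level of 6 fibroblast markers was 27.6 to 35.9 in *Nrde2*Δ*200*, with 2 of them at 0, and 13.1 to 20.9 in WT, with 1 at 0. The 2-cell-like markers summed to 15.99 to 20.7 in *Nrde2*Δ*200*, between the WT and *Nrde2*-KO values. Primitive endoderm markers were higher, at 19.71 to 21.22 against 13.67 to 13.72. Sums of pluripotency, trophectoderm, neuroectoderm, and mesoderm and endoderm markers were lower without overlap, and that of primed epiblast markers overlapped WT. The part of these lists in the results was not tested. *Zim1*, with 1.02, was the 1 gene called of 40 other imprinted genes tested, where 2.65% of all genes were called.

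In *Nrde2-D174R* limma called 0 of 9 members, where 0.215% of all genes were called. At an unadjusted p below 0.05 there was 1 member, and edgeR and DESeq2 called 0. *Peg10* stood at 156 and 172, a log2 fold change of 0.22 with a 95% interval from −0.38 to 0.82. That 1 member was *Grb10*, at 145 and 149 against 91.7 and 81.2, or 0.77 as a log2 fold change, with adjusted p = 0.00183 and no overlap between libraries.

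**Figure D2:**
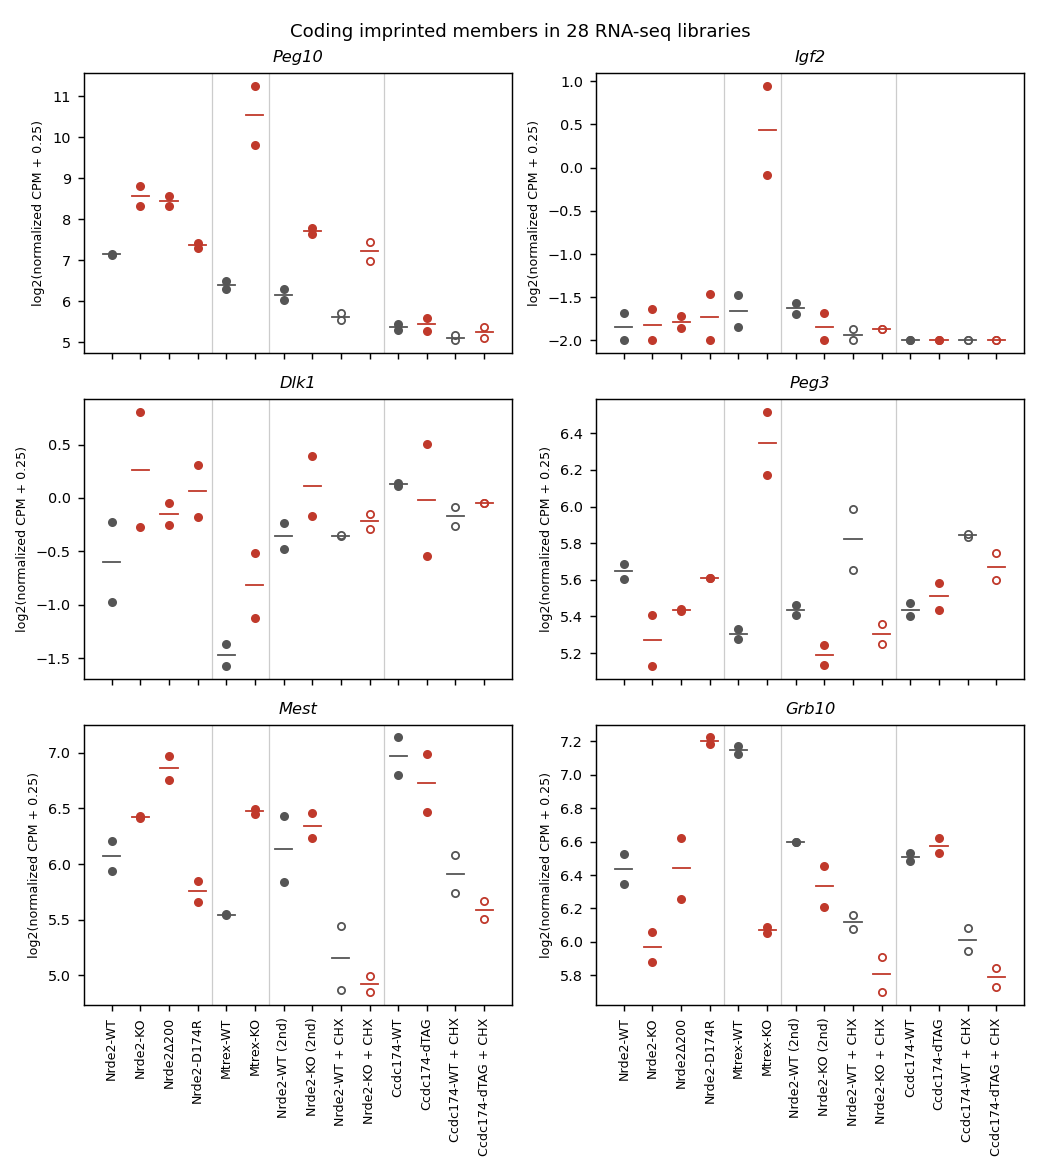
Level of the 6 coding members in the 28 RNA-seq libraries, drawn as for the noncoding ones. *Peg10* was above its WT in *Nrde2*-KO, *Nrde2*Δ*200* and *Mtrex*-KO but not in *Nrde2-D174R* or *Ccdc174-dTAG* by the test, and *Igf2* was near 0 outside *Mtrex*-KO.

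Depletion of CCDC174 left *Peg10* at 38.5 and 48.1 normalized CPM against 39.0 and 43.2 in *Ccdc174*-WT. The log2 fold change was 0.07, with a 95% interval from −0.53 to 0.66. Its difference from the *Nrde2*-KO effect of the second experiment was −1.49 ± 0.40 (SE) with an adjusted p of 0.0474 by limma, which missed the limit of 0.01, and 0.678% of genes were called in that comparison. It was called when only the compared groups were fitted, with an adjusted p of 0.00388 by limma.

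Limma called 0 of 9 members in *Ccdc174-dTAG*, where 1.38% of all genes were called. At an unadjusted p below 0.05 there was 1 member, *Mirg*, and edgeR and DESeq2 called 0. *Mirg* stood at 14.02 and 10.2 against 22.6 and 20.6, or −0.84 as a log2 fold change, with adjusted p = 0.012. It was called without *Ccdc174-dTAG* replicate 1, at −1.06. *Rian* at 130.2 and 120.4 against 195 and 175 and *Meg3* at 14.24 and 14 against 28.3 and 19.6 did not overlap WT either, with adjusted p-values by limma of 0.224 and 0.393.

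With CHX in both groups 1 member was called, where 0.911% of all genes were called. *Mirg* stood at 6.25 and 5.57 in *Ccdc174-dTAG* and 15.8 and 13.3 in WT, which is −1.26 ± 0.13 as a log2 fold change (SE, n = 2 per group), adjusted p = 1.3e-04. *Rian* was at 52.2 and 48.7 against 88.6 and 86.9 and *Meg3* at 11 and 10.1 against 17.7 and 18.9. Their log2 fold changes were −0.80 and −0.78, with adjusted p-values by limma of 2.5e-05 and 0.00127. Among all genes tested, 9.05% had an adjusted p below 0.01 by limma at any fold. The CHX libraries were fitted apart from the *Mtrex* libraries and had a smaller spread for these RNAs. The difference between the effects with and without CHX was −0.24 for *Rian*, −0.43 for *Mirg* and −0.05 for *Meg3*, with adjusted p-values by limma of 0.533, 0.529 and 0.974. In this difference 0 of 9 members and 0.0727% of genes were called by limma, 1 member had an unadjusted p below 0.05, and edgeR and DESeq2 called 0. For *Nrde2*-KO the same difference had 0 of 9 members and 0.172% of genes called, 2 members at an unadjusted p below 0.05, and 0 called by edgeR and DESeq2.

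**Figure D3:**
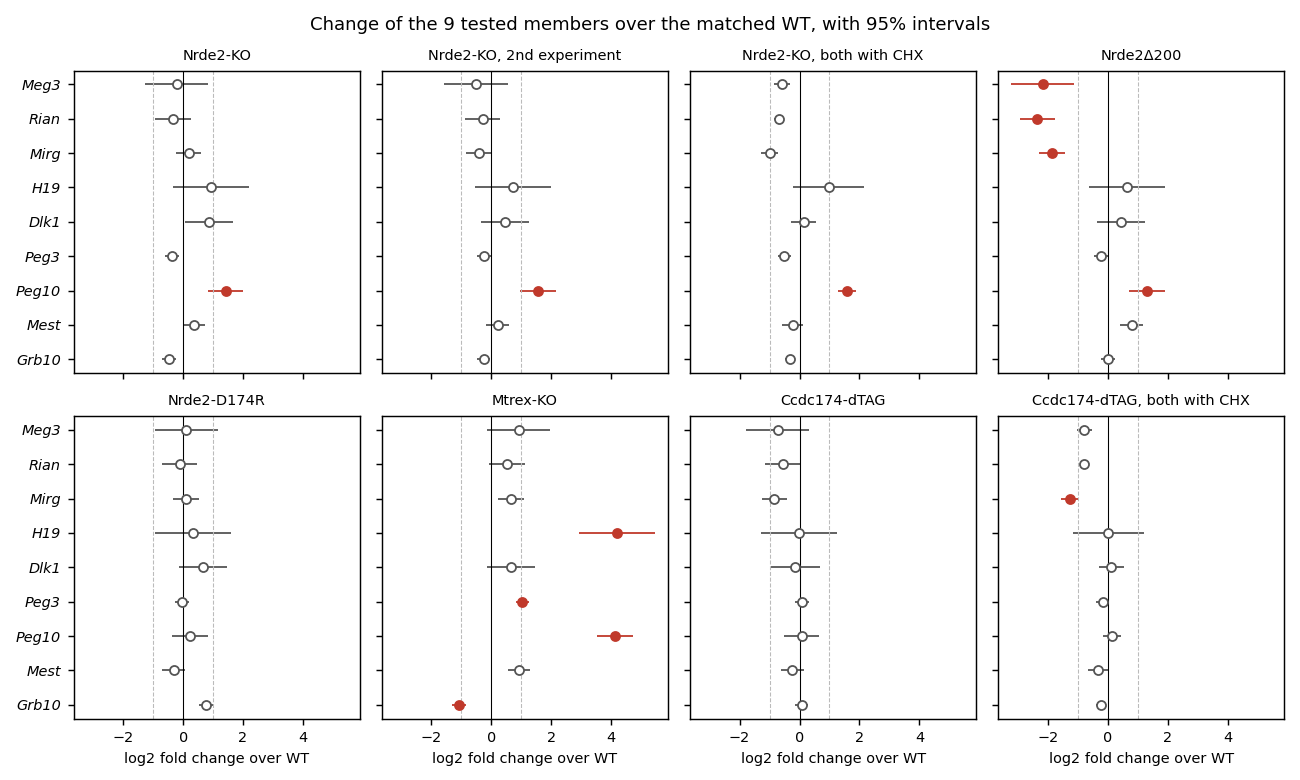
Log2 fold change of the 9 tested members over the matched WT in 8 comparisons, with 95% intervals from limma, dashed lines at the fold limit and filled red points where a member was called. *Peg10* was called in *Nrde2*-KO, *Nrde2*Δ*200* and *Mtrex*-KO, and the *Meg3*, *Rian* and *Mirg* trio in *Nrde2*Δ*200*.

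The members were set apart by their response in *Mtrex*-KO and *Nrde2*-KO by a test of the difference between the 2 effects. It was 3.26 ± 0.85 (SE) for *H19*, 2.72 ± 0.40 for *Peg10* and 1.42 ± 0.16 for *Peg3* on the log2 scale, with adjusted p-values by limma of 0.00483, 3.6e-05 and 1.8e-06. These 3 of 9 were called, where 18.7% of genes were called in the same comparison. *H19* lost its call with DESeq2 (3.08, adjusted p = 0.0102) and, in limma, with no filter (adjusted p = 0.0246), and *Peg3* with CPM as deposited (0.96), where *Grb10* was called (−1.07). *H19* also lost it without *Nrde2*-WT replicate 1 (2.92), *Nrde2*-KO replicate 2 (2.58), *Mtrex*-WT replicate 1 (2.67) or *Mtrex*-KO replicate 2 (2.85). *Meg3* was called, with 2.30, and *Rian*, with 1.32, without *Mtrex*-KO replicate 2, and *Rian*, with 1.47, without *Mtrex*-WT replicate 1.

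CHX for 4 h lowered *Rian* in all 4 lines and conditions. In *Nrde2*-WT it stood at 154 and 174.3 without and 71.7 and 78.7 with CHX, which is −1.12 ± 0.08 as a log2 fold change (SE, n = 2 per group), adjusted p = 3.6e-08. In the libraries labelled *Nrde2*-KO it went from 130 and 138 to 45.1 and 47.1, a log2 fold change of −1.53. In *Ccdc174*-WT it went from 195 and 175 to 88.6 and 86.9 (−1.07) and in *Ccdc174-dTAG* from 130.2 and 120.4 to 52.2 and 48.7 (−1.31). No library with CHX overlapped one without. *Rian* lost its call in *Ccdc174*-WT without replicate 1 without CHX (−0.99), and with CPM as deposited in *Nrde2*-WT (−0.91) and *Ccdc174*-WT (−0.84).

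*Mest* was called lower in 3 of the 4 conditions. It stood at 74.8 and 87.5 without and 28.6 and 31.6 with CHX in *Nrde2*-KO (log2 fold change −1.42), at 141 and 111 against 67.3 and 53.0 in *Ccdc174*-WT (−1.06) and at 127 and 88.5 against 50.7 and 45.2 in *Ccdc174-dTAG* (−1.14). In *Nrde2*-WT it was at 57 and 86.3 against 28.9 and 43.2 (−0.98), just under the fold limit, and was called without replicate 1 without CHX (−1.28) or replicate 2 with CHX (−1.27). Its call was lost in *Ccdc174*-WT without replicate 1 without CHX or replicate 2 with CHX, at −0.89 each, and in *Ccdc174-dTAG* without replicate 1 without CHX (−0.88). With CPM as deposited it was lost in both, at −0.83 and −0.91.

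*Mirg* fell in *Nrde2*-KO from 19.2 and 18.5 to 7.64 and 6.80, or −1.36 as a log2 fold change, with adjusted p = 1.5e-06. In *Ccdc174-dTAG* its log2 fold change was −0.99, and it was called there without replicate 2 without CHX (−1.21) or replicate 1 with CHX (−1.07). The number of members called was 1, 3, 2 and 2 of 9 in *Nrde2*-WT, *Nrde2*-KO, *Ccdc174*-WT and *Ccdc174-dTAG*, all lower, where 2.91, 3.17, 2.62 and 2.68% of 15133 genes were called lower. *Grb10* was lower by 0.47 to 0.79 on the log2 scale with adjusted p-values below 0.01, and *Peg3* was higher in the 2 WT groups by 0.39 and 0.41. Of 39 other imprinted genes tested, 2, 0, 2 and 2 were called higher and 2, 2, 1 and 1 lower, in the order above. Over all genes, 11.2, 10.9, 12.7 and 11.9% were called higher. Among those called lower, *Cd81*, a tetraspanin, was so in all 4, with log2 fold changes from −1.26 to −1.12. *Kcnq1ot1*, a long noncoding RNA, was called lower in the 2 *Nrde2* groups, with −1.56 and −1.37.

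**Figure D4:**
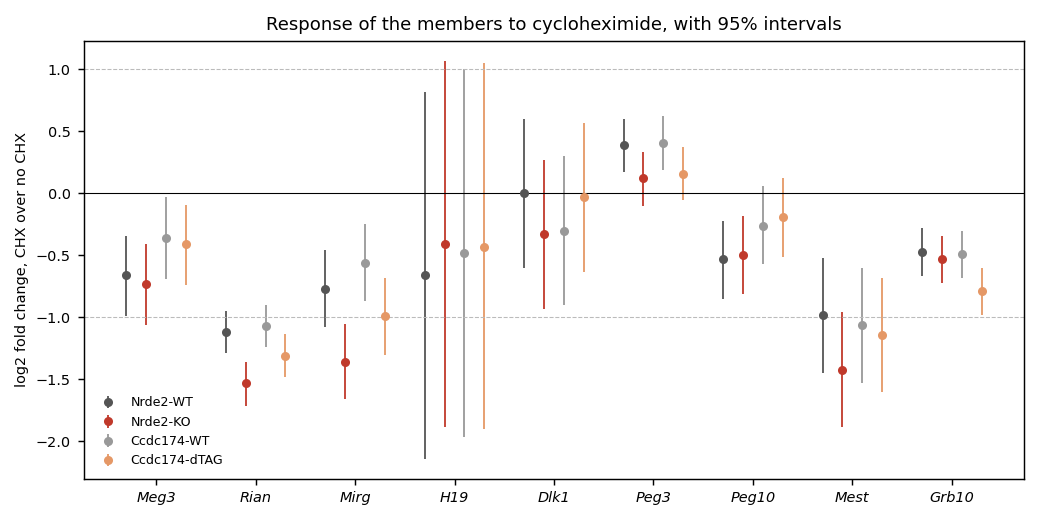
Log2 fold change of the 9 tested members with CHX over without CHX in *Nrde2*-WT, *Nrde2*-KO, *Ccdc174*-WT and *Ccdc174-dTAG* cells, with 95% intervals from limma and dashed lines at the fold limit. *Rian* was beyond the limit in all 4, from −1.07 to −1.53, and *Mest* in 3, though with CPM as deposited *Rian* was beyond it in 2 and *Mest* in 1.

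Ribo-seq showed which members carried ribosome-protected fragments. *H19* had 2 and 1 reads in WT and 2 and 4 in *Nrde2*-KO, and *Igf2* had 0 in WT and 1 in each knockout library, so neither was tested. *Rian* was at 98.6 and 94.8 normalized CPM in WT, above every coding member before exon length was counted, and *Meg3* was at 31.3 and 26.2. Per kb of exon the WT mean of *Rian*, 5.30, was below those of *Mest*, 11.6, and *Peg10*, 8.87, and that of *Meg3* was 1.59. Set against RNA-seq of the same line, the ratio of the 2 normalized CPM was 0.855 for *Meg3*, 0.317 for *Rian* and 0.105 for *Mirg*. The medians were 0.497 over 12028 protein-coding genes and 0.341 over 273 long noncoding genes. Footprints were isolated by nuclease digestion and may include fragments protected by other proteins, which was not tested.

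In *Nrde2*-KO 3 of 8 members were called in Ribo-seq, where 6.42% of 13857 genes were called. *Meg3* fell to 12.6 and 10.7, which is −1.29 ± 0.14 as a log2 fold change (SE, n = 2 per group), adjusted p = 5.9e-07. *Rian* fell to 38.1 and 46.7, which is −1.19 ± 0.10 as a log2 fold change, adjusted p = 1.9e-08 by limma. *Peg10* rose from 62.1 and 56.2 to 129.5 and 134, which is 1.15 ± 0.08 as a log2 fold change, adjusted p = 4.1e-09 by limma. None of the 3 overlapped WT.

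*Mirg* stood at 4.17 and 2.54 in WT and 1.80 and 2.08 in knockout, from 32 and 19 reads against 10 and 16, with an adjusted p of 0.115. *Dlk1*, which had 2.61 and 2.94 in WT, stood at 4.86 and 6.12 in knockout, or 0.92 as a log2 fold change, with adjusted p = 0.01, and was called without *Nrde2*-KO replicate 1 (1.08). *Peg3* was lower by 0.57 on the log2 scale with an adjusted p of 0.00345, and *Mest* and *Grb10* had log2 fold changes of 0.24 and −0.28.

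The Ribo-seq effect was set against the RNA-seq effect of the same genotype in the first experiment, as an interaction in 8 libraries. The difference was −1.07 ± 0.22 (SE) for *Meg3*, with an adjusted p of 0.00448, and −0.85 ± 0.13 for *Rian*, with an adjusted p of 0.00108 by limma but under the fold limit. *Meg3* was the one of 8 members called, where 1.39% of 12788 genes were called. Its call was lost without RNA-seq WT replicate 2 or *Nrde2*-KO replicate 1 (−0.90 each) and without Ribo-seq WT replicate 1 (−0.95), WT replicate 2 (−1.20) or *Nrde2*-KO replicate 2 (−0.96). *Mirg* was called without Ribo-seq WT replicate 2 (−1.20). For *Peg10* the difference was −0.26, with a 95% interval from −0.62 to 0.09.

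Of the other imprinted genes 3 of 36 tested were called in Ribo-seq, where 6.42% of all genes were called. These were *Sgce*, which neighbours *Peg10*, with 1.74, *Slc22a18* with 1.08 and *Igf2r*, a receptor that takes up IGF2, with 1.05. *Sgce* stood at 7.43 in *Nrde2*-KO and 2.04 in WT on average. Of 15 genes linked to the control of imprints 2 were called, *Dnmt1*, the maintenance DNA methyltransferase, which fell by 1.03, and *Ehmt2*, which fell by 1.11. The summed level of 7 primitive endoderm markers was 12.23 to 14.03 in *Nrde2*-KO, with 0 of them at 0, and 4.27 to 5.22 in WT, with 1 at 0, and that of 6 fibroblast markers was 33.2 to 35.1 against 13.6 to 15.1, with 0 of them at 0 in both groups. The 2-cell-like markers summed to 1.079 to 1.171 against 0.1305 to 0.5339, close to 0. Pluripotency markers summed to 2694 to 2793 against 3201 to 3223, and trophectoderm and neuroectoderm sums were lower without overlap too. Sums of mesoderm and endoderm and of primed epiblast markers overlapped. The part of these lists in the Ribo-seq results was not tested.

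**Figure D5:**
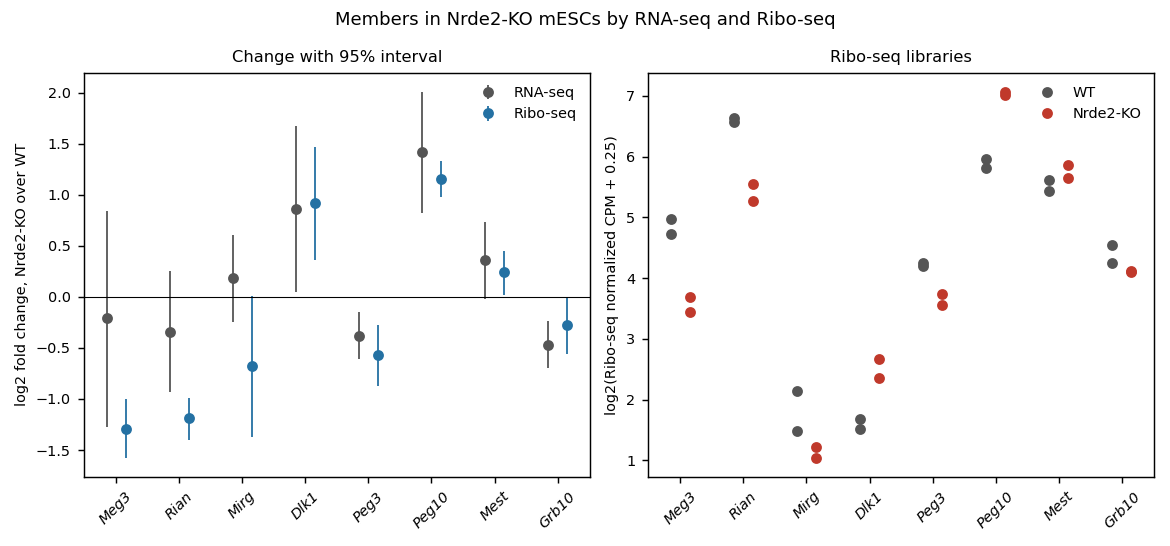
Left, log2 fold change of 8 members in *Nrde2*-KO over WT in RNA-seq of the first experiment and in Ribo-seq, with 95% intervals from limma, and right, the 4 Ribo-seq libraries as log2 of normalized CPM plus 0.25. *Meg3* and *Rian* were lower in Ribo-seq, by 1.29 and 1.19, while *Peg10* was higher in both assays.

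Over the 14 RNA-seq group means *Meg3*, *Rian* and *Mirg* had similar patterns. Pearson's r was 0.98 between *Rian* and *Mirg*, and 0.96 between *Meg3* and either. Among 14889 genes, the 2 with the most similar pattern to each of these RNAs were the other two. *H19* and *Peg10* had r = 0.93, and their nearest genes were *Wdr35* and *Anxa3* for *H19* (r = 0.988 and 0.985) and *Ssbp3* and *Nfia* for *Peg10* (0.973 and 0.972). For *Dlk1*, *Peg3*, *Mest* and *Grb10* the highest r was 0.876 (*Xlr3c*), 0.947 (*Tmem125*), 0.918 (*Tmod2*) and 0.919 (*Hdac1*), and the next were *Nlrp4f* (0.838), *Atrnl1* (0.928), *Slc35b4* (0.916) and *AC125456.1* (0.915). The group means share cell lines, controls and treatments, so these values describe likeness of pattern over these 14 groups only.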

How the data were processed

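RNA-seq was measured in 28 libraries of mESCs, 2 per group, and Ribo-seq in 4. For both, the authors mapped reads to mm10 with STAR 2.7.3a, used featureCounts to count those that mapped once and on the right strand in each GENCODE M23 gene, and deposited CPM of 55335 genes. Ribo-seq footprints came from a nuclease digest, and the authors trimmed their adapters and collapsed duplicates first. The deposited CPM were whole multiples of 1 read, so that 100% of values came out whole within 0.1 and reads were recovered. RNA-seq libraries held 28683644 to 36272309 reads in genes and Ribo-seq libraries 3475051 to 5035940, and a low count limits precision mainly in Ribo-seq. Intervals on reads cover counting error only.

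CPM were divided by median-of-ratios factors, 0.25 was added, and log2 values were tested with limma 3.58.1 (R 4.3.3, mean-variance trend) for genes of at least 0.5 mean CPM. One fit held the 20 libraries without CHX, and others the CHX, Ribo-seq and combined libraries. Calls needed a Benjamini-Hochberg adjusted p below 0.01 over all genes tested and a log2 fold change beyond 1. The spread was estimated jointly over the groups of a fit. Scripts were tested on simulated data. Each result was recomputed with a pseudocount of 0.1 or 1, with the filter at 1 CPM or absent, without scaling factors, on the groups of the comparison alone, with replicate numbers blocked, with edgeR 4.0.16 and DESeq2 1.42.0 on the recovered reads, and without each library in turn.

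Gene names and positions are from GENCODE M21, which holds 55154 of the identifiers, and sequences from RefSeq and GENCODE transcripts. RefSeq promoter windows were used for 8 members. Reads in bases that a member shares with a small RNA gene on the same strand may be uncounted. The members, the 51 other imprinted genes, the 15 genes linked to imprint control and the markers were chosen from general knowledge. Earlier results of these data were known by then. All 10 members were named, of the other lists at most the 5 largest called changes per comparison, and the 2 genes most like each member. BCLIP libraries were not analysed here.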

Additional observations from a re-analysis of the deposited data

Results flagged for a closer look

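Some differences between effects passed the test. The *Mtrex*-KO effect exceeded the *Nrde2*-KO effect for *H19* by 3.26, for *Peg10* by 2.72 and for *Peg3* by 1.42 on the log2 scale, the 2 knockouts being of different lines with their own WT libraries. The *H19* difference was not called with DESeq2, with no filter or when any 1 of 4 libraries was left out, and that of *Peg3* not with CPM as deposited. The *Nrde2*-KO effect on *Meg3* was lower in Ribo-seq than in RNA-seq, with a log2 difference of −1.07. This call was lost with CPM as deposited (−0.98) and without some single libraries. The RNA-seq side was the first experiment, where the *Meg3* mean in *Nrde2*-KO was 0.862 times that of WT, against 0.698 in the second.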

How the results depend on the processing

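Of 18 comparisons, 9 kept a member count within 1.5 times of the reported one under every alternative run, and no called member changed sign. The 160 results of single members gave 2220 values under the alternatives, of which 77 changed sign, none of them called. Without a filter *Nrde2*-KO had 0 members called, and *Nrde2*Δ*200* had 2. With CPM as deposited the count was 0 for CHX in *Nrde2*-WT and in *Ccdc174*-WT, 1 in *Ccdc174-dTAG* and 0 for Ribo-seq minus RNA-seq. This scale moved the median of all genes by −0.38 in *Mtrex*-KO, by 0.20 to 0.24 for CHX, by 0.15 in Ribo-seq and by −0.42 for *Mtrex*-KO minus *Nrde2*-KO. The share of all calls that were higher went from 59.3 to 34.1% in *Mtrex*-KO, from 61.3 to 28.9% in the latter difference, from 77.4 to 88.1% for CHX in *Nrde2*-KO, from 81.6 to 92.2% in *Ccdc174-dTAG*, from 56.4 to 75.5% in Ribo-seq and from 76.4 to 90.5% for Ribo-seq minus RNA-seq. The count with CHX in *Nrde2*-KO was 2 with a pseudocount of 0.1, edgeR or DESeq2, for CHX in *Nrde2*-WT 2 with DESeq2, and for *Ccdc174-dTAG* minus *Nrde2*-KO 1 with only the compared groups. Leaving out 1 library gave 0 to 1 in *Nrde2*-KO, 2 in every case in *Nrde2*Δ*200*, 0 to 1 in *Ccdc174-dTAG*, 1 to 2 in *Nrde2*-KO with CHX, 1 to 2 for CHX in *Nrde2*-WT, 0 to 2 for CHX in *Ccdc174*-WT, 1 to 3 for CHX in *Ccdc174-dTAG* and 0 to 1 for Ribo-seq minus RNA-seq. The cause was not tested. The lone remaining library was assumed to vary like the other groups. The labels tie the replicate numbers to no shared batch, and 2 numbers per group do not settle a pairing. Deviations of same-numbered libraries correlated from −0.035 to 0.412, the highest in *Mtrex*. With the replicate block *Meg3* was also called for *Mtrex*-KO minus *Nrde2*-KO (1.12), 4 members in place of 3, with no other count changed, and in *Mtrex*-KO *Meg3*, *Rian* and *Mirg*, each higher in knockout within both numbers on the normalized scale, had adjusted p-values by limma of 1.3e-04, 3.6e-05 and 4.8e-05 under the fold limit. Depth limits *Igf2*, *Dlk1* and the Ribo-seq values of *H19* and *Mirg*.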
